A study of Mus musculus with 11 samples.

Results

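The genes described here are the inhibitors of DNA binding Id1, Id2 and Id3 and the E proteins Tcf3, Tcf4 and Tcf12, followed in B cells from the spleen of 2 strains of mice with and without stimulation of the B cell receptor. Members were the probe sets of the Affymetrix mouse genome array whose platform annotation names exactly 1 of these 6 symbols. They comprise 19 of the 34945 probe sets that name 1 symbol, and 6 of the 18193 genes those probe sets represent. Id1 and Id3 have 1 probe set each, Id2 and Tcf3 have 3, Tcf12 has 5 and Tcf4 has 6. All 6 members gave values on all 11 arrays, and no filter on low values was applied.

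The unstimulated groups are 3 arrays of NOD (NOD/ShiLtJ) cells and 3 of NR4 (NOD.NOR-Chr4/DvsJ) cells, cultured for 2 h in medium alone. The stimulated groups are 2 arrays of NOD and 3 of NR4 cells cultured for the same time with anti-IgM, a goat antibody to mouse IgM used as F(ab')2 fragments at 10 µg/ml, which cross-links the receptor. NOD mice develop autoimmune diabetes spontaneously, and NR4 is the NOD strain carrying chromosome 4 material of the related NOR strain. All mice were females aged 6 weeks, each lot of cells pooled 7 or 8 spleens of 1 strain, and B cells were enriched by magnetic depletion of other cells. The 3 lots of a strain supplied its cultures with and without anti-IgM, so arrays of a strain are not fully independent, and no value belongs to a single animal. In such bulk samples fewer cells of a type and less RNA per cell cannot be told apart.

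E proteins are basic helix-loop-helix transcription factors that bind, as dimers, a short DNA element called the E-box. In B cells TCF3 (known as E2A), TCF12 (known as HEB) and TCF4 drive commitment to the lineage, rearrangement of immunoglobulin genes and expression of many B cell genes. ID proteins have the helix-loop-helix dimerization domain without the basic DNA-binding region, so a dimer of an ID and an E protein cannot bind the E-box. Id3 is known as the ID gene of mature lymphocytes under control of antigen receptor signals, and mice that lack it have B cells that proliferate poorly after receptor cross-linking. Id2 is needed by natural killer (NK) and other innate lymphoid cells and is also expressed in activated B cells, and Id1 is a target of bone morphogenetic protein signalling.

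The Id2 and Id3 promoters are shown because these are the members whose response passed the test, in opposite directions. Each sequence is the 250 bases before the start site in the RefSeq promoter table, on the strand of the gene and from 5′ to 3′. The build is GRCm38.p6, with Id2 at chr12:25096093-25096342 on the minus strand and Id3 at chr4:136143572-136143821 on the plus strand. The reference mouse is neither NOD nor NR4. Capitals mark matches on either strand to CANNTG, the E-box, or to GCGNGGG, the first part of the site bound by EGR factors.
Id2: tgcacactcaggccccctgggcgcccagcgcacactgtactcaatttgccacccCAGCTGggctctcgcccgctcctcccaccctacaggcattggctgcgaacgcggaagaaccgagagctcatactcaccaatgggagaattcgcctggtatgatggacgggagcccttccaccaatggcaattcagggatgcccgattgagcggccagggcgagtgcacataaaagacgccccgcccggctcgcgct
Id3: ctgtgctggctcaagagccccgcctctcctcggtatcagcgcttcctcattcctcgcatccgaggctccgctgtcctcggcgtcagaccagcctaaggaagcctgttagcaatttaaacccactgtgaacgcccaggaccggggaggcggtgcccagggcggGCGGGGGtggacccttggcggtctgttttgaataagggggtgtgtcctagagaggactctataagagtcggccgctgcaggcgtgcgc
The Id2 window held 1 E-box, CAGCTG, whose first base lies 196 bases before the start, and no match to GCGNGGG. The Id3 window held no E-box and 1 match to GCGNGGG, beginning 88 bases before the start and overlapping a GGGCGG Sp1 element. Of the 32851 promoters of the table, 66.2% held CANNTG in the same window, 13.0% held CAGCTG and 20.3% held GCGNGGG. The Sp1 element was matched at 1 place in Id2 and at 2 places in Id3, and in 32.7% of all promoters. Both windows had a GC content of 62.8%. These matches describe letters and not occupied sites.

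Values are log2 signals centred on the median of each probe set over the 11 arrays, and the log base is taken as 2, which the file does not state. A gene's value is the median of its probe sets. Centring removes levels, so values compare arrays for 1 gene and never 1 gene with another, and whether a member lies near background is not known. For the same reason the presence of B cell markers, or the absence of others, could not be checked as a level. In control transcripts for Gapdh and beta-actin the 3′ minus 5′ probe set difference was 0.96 in NR4 anti-IgM replicate 1 and -0.08 to 0.29 in the other 10 arrays. It was -0.01, -0.04 and -0.08 in unstimulated NOD and 0.21 and 0.13 in stimulated NOD arrays. In NR4 it was -0.05, -0.07 and 0.29 without stimulation and 0.96, 0.04 and 0.23 with it. This difference was thus mostly higher in stimulated arrays, and its part in the responses was not tested. Without NR4 anti-IgM replicate 1 the averaged responses of Id2 and Id3 were 0.48 (limma adjusted p = 0.039) and -0.84 (adjusted p = 0.0346). No count of reads exists for arrays, and their number limits the precision.

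The main comparison asked how 2 h of receptor stimulation changes these genes. Averaged over the strains, Id2 rose 1.43-fold and Id3 fell 1.71-fold, while Id1, Tcf3, Tcf4 and Tcf12 did not pass the test. At an unadjusted p under 0.05, Tcf12 passed beside Id2 and Id3 (11.4% of genes). In all, 2 of 6 members were called (limma, Benjamini-Hochberg adjusted p below 0.05 over all 18193 genes), 1 in each direction, against 1.56% of all genes, with 0.715% rising and 0.841% falling. Values of unstimulated and stimulated arrays did not overlap over both strains for 3 members, Id2, Id3 and Tcf12, against 3.64% of all genes.

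**Figure D1:**
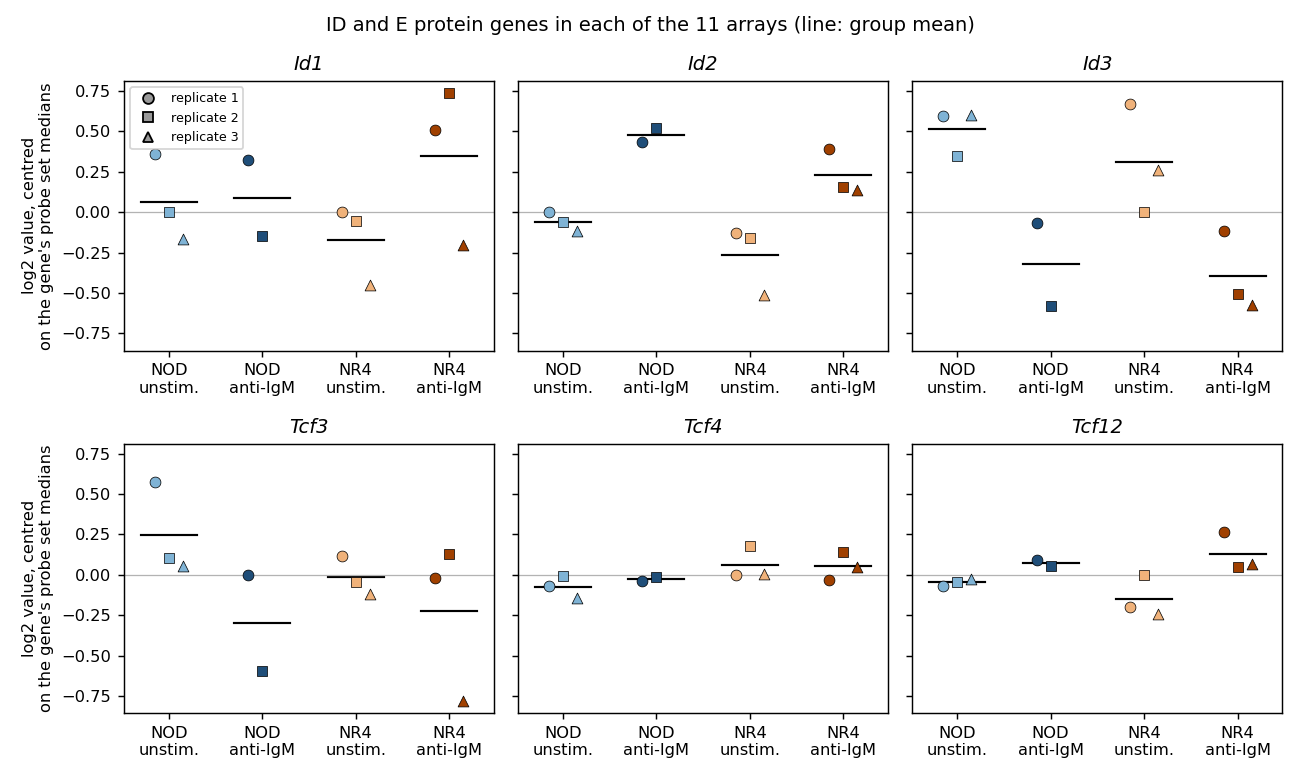
Centred log2 value (vertical axis) of the 6 genes in each of the 11 arrays, by group (horizontal axis); marker shape gives the replicate number of the labels and the line the group mean. All 5 stimulated arrays lie above all 6 unstimulated arrays for Id2 and below them for Id3, while Tcf4 stays between -0.15 and 0.18 in all 11.

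Id2 was at 0.00, -0.06 and -0.12 in unstimulated NOD replicates 1 to 3 and at 0.44 and 0.52 in the stimulated NOD replicates. In NR4 it was at -0.13, -0.16 and -0.51 without stimulation and at 0.39, 0.16 and 0.13 with it. The lowest stimulated array, at 0.13, thus lay above the highest unstimulated array, at 0.00, and unstimulated NR4 replicate 3 stood lowest of all. The averaged response was 0.52 log2 units (SE 0.09, 95% interval 0.32 to 0.72, limma adjusted p = 0.0226). Of the 130 genes that rose, 92 rose by more.

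The 3 Id2 probe sets all had positive differences. Probe set 1435176_a_at rose by 0.59 (SE 0.09, limma adjusted p = 0.0169 over all probe sets), whereas 1422537_a_at was at 0.58 (SE 0.13, adjusted p = 0.0711) and 1453596_at at 0.30 (SE 0.11, adjusted p = 0.313). The second of these spans a wider range, from -0.92 in unstimulated NR4 replicate 3 to 0.64 in stimulated NOD replicate 1. With the lowest-numbered probe set alone, which is 1422537_a_at, the gene was not called (adjusted p = 0.067). The call of Id2 was also lost without NOD unstimulated replicate 2 (0.52, adjusted p = 0.070), NOD unstimulated replicate 3 (0.50, adjusted p = 0.0629), NOD anti-IgM replicate 1 (0.54, adjusted p = 0.071) or NOD anti-IgM replicate 2 (0.50, adjusted p = 0.114).

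Id3 moved the other way. Its single probe set, 1416630_at, was at 0.60, 0.34 and 0.60 in unstimulated NOD replicates 1 to 3 and at -0.07 and -0.58 in the stimulated ones. In NR4 it was at 0.67, 0.00 and 0.26 without stimulation and at -0.12, -0.50 and -0.57 with it. Every stimulated array was below 0 and none of the unstimulated arrays was, although unstimulated NR4 replicate 2, at 0.00, and stimulated NOD replicate 1, at -0.07, lay close to each other. Id3 fell by 0.77 log2 units (SE 0.15, 95% interval of the difference -1.10 to -0.44, limma adjusted p = 0.0318). Of the 153 genes that fell, 33 fell by more. The call was kept without NOD anti-IgM replicate 1, NR4 unstimulated replicate 2 or NR4 anti-IgM replicate 1. It was lost without any 1 of the other 8 arrays. Without NOD unstimulated replicates 1, 2 and 3 in turn, the Id3 difference was -0.75, -0.82 and -0.75 (limma adjusted p = 0.0838, 0.0699 and 0.0871). It was -0.64 without NOD anti-IgM replicate 2 (adjusted p = 0.162), -0.68 without NR4 unstimulated replicate 1 (adjusted p = 0.0633) and -0.79 without NR4 unstimulated replicate 3 (adjusted p = 0.0646). Without NR4 anti-IgM replicates 2 and 3 it was -0.75 and -0.73 (adjusted p = 0.066 and 0.0689). The size of the fall thus stayed between 0.64 and 0.90 log2 units whichever array was left out.

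Id1, the third inhibitor, varied widely between replicates of a group. In NOD it was at 0.36, 0.00 and -0.17 without stimulation and at 0.32 and -0.15 with it, so the groups overlapped. In NR4 it was at 0.00, -0.06 and -0.45 without and at 0.51, 0.74 and -0.20 with stimulation, and replicate 3 was the lowest array of both groups. The difference was 0.02 in NOD (SE 0.28) and 0.52 in NR4 (SE 0.25, limma adjusted p = 0.55). With the replicate number as a block these were -0.16 (SE 0.18, adjusted p = 0.851) and 0.52 (SE 0.15, adjusted p = 0.16). The averaged difference, without a block, was 0.27 (SE 0.19, 95% interval -0.14 to 0.68, limma adjusted p = 0.736). Its spread within groups, a residual SD of 0.35, exceeded that of 89.9% of genes, and the interval leaves room for a rise as large as that of Id2.

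Of the E protein genes, Tcf3 had the largest difference and the least even one. It was at 0.57, 0.11 and 0.06 in unstimulated NOD arrays and at 0.00 and -0.59 in the stimulated ones. In NR4 it was at 0.12, -0.04 and -0.12 without and at -0.02, 0.13 and -0.78 with stimulation, where the groups overlapped. The averaged difference was -0.38 (SE 0.18, 95% interval -0.79 to 0.03, limma adjusted p = 0.506). With the replicate number as a block it was -0.45 (SE 0.13, limma unadjusted p = 0.00902, adjusted p = 0.128). In that fit Tcf12 was at 0.19 (SE 0.07, unadjusted p = 0.0338, adjusted p = 0.256), and neither was called.

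The 3 Tcf3 probe sets disagreed on single arrays. In unstimulated NR4 replicate 3, 1426297_at was at 1.04 while 1427764_a_at and 1452542_x_at were at -0.12 and -0.23. In stimulated NR4 replicate 2 it was at -1.16 and the others at 0.27 and 0.13. Probe set 1426297_at gave the widest averaged difference, -0.71 (SE 0.29, limma adjusted p = 0.375), and 1452542_x_at the narrowest, -0.13 (SE 0.15, adjusted p = 0.893). None of the 3 was called, and all 3 had a negative sign. The 1452542_x_at set is of a kind that can match further transcripts.

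Tcf12 had a small difference of 1 sign throughout. It was at -0.07, -0.05 and -0.03 in unstimulated and at 0.09 and 0.05 in stimulated NOD arrays. In NR4 it was at -0.20, 0.00 and -0.24 without and at 0.27, 0.05 and 0.07 with stimulation. All 5 stimulated arrays were above all 6 unstimulated ones, yet the averaged difference of 0.20 (SE 0.07, 95% interval 0.03 to 0.36) did not pass over all genes (limma adjusted p = 0.291).

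Among the 5 Tcf12 probe sets, 4 had positive differences. Probe set 1439619_at was at 0.50 (SE 0.12, limma adjusted p = 0.0808) and 1421908_a_at at 0.23 (SE 0.08, adjusted p = 0.21). With the replicate number as a block, 1439619_at passed over all probe sets at 0.45 (SE 0.08, adjusted p = 0.032). Probe set 1439209_at reached -1.75 in unstimulated NOD replicate 3, while the other 4 sets lay between -0.67 and 0.01 there. Probe set 1446294_at was at -0.08 (SE 0.09). The sets of this gene thus differ in both size and spread of the response.

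Tcf4 showed the narrowest range of the 6. Its values ran from -0.15 in unstimulated NOD replicate 3 to 0.18 in unstimulated NR4 replicate 2. The averaged difference was 0.02 (SE 0.07, 95% interval -0.13 to 0.17, limma adjusted p = 0.987), an interval that leaves out changes as large as that of Id2 or Id3 in either direction. Of its 6 probe sets, 4 had positive and 2 negative differences, from -0.11 to 0.10. Its residual SD of 0.08 was larger than that of only 7.68% of genes.

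Over all probe sets tested, 1.42% were called in the averaged response, and 2 of the 19 member probe sets were, 1 of Id2 and 1 of Id3. The other 17 had adjusted p-values from 0.0711 upward.

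**Figure D2:**
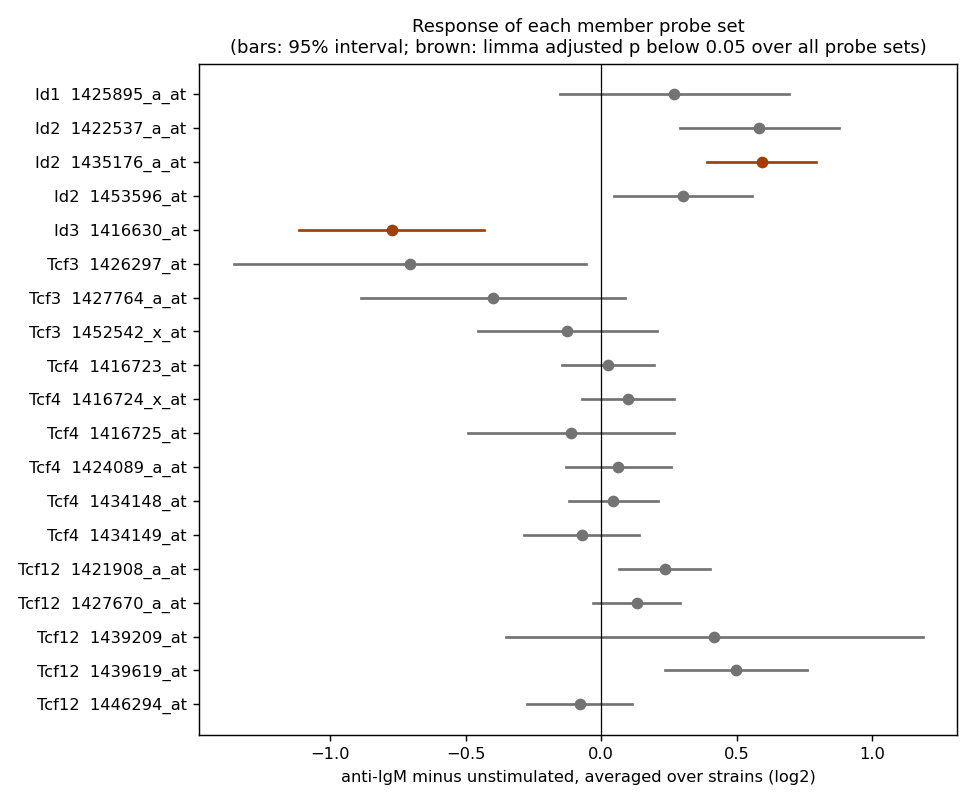
Difference between stimulated and unstimulated cells averaged over strains (horizontal axis, log2) for the 19 member probe sets, with 95% intervals from limma. Probe sets 1435176_a_at of Id2 (0.59) and 1416630_at of Id3 (-0.77), in brown, passed over all probe sets; 1426297_at of Tcf3 and 1439209_at of Tcf12 have the widest intervals.

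The next question was whether the strains respond alike. In NOD cells Id2 differed by 0.54 (SE 0.14, limma adjusted p = 0.321) and in NR4 cells by 0.50 (SE 0.12, adjusted p = 0.149). Id3 differed by -0.84 in NOD (SE 0.22, adjusted p = 0.371) and by -0.71 in NR4 (SE 0.20, adjusted p = 0.221). Arrays of the cultures did not overlap for either gene, nor for Tcf12, in each strain, nor for Tcf3 in NOD (20.2% of genes in NOD and 12.6% in NR4). Without a block, neither gene was called within a single strain, where 0.115% of genes passed in NOD and 0.412% in NR4, and 0 of 6 members did. At an unadjusted p under 0.05, Id2 and Id3 passed in NOD (5.15% of genes) and Id2, Id3 and Tcf12 in NR4 (9.63% of genes). With the replicate number as a block, Id3 was called in each strain, by -0.86 in NOD (SE 0.13, adjusted p = 0.0425) and by -0.71 in NR4 (SE 0.11, adjusted p = 0.0278). A random block of lot took same-numbered arrays of a strain as 1 lot, which the labels do not state. With it, Id2 (0.50, limma adjusted p = 0.0309) and Id3 (-0.71, adjusted p = 0.0415) were both called in NR4. In NOD they were not (adjusted p = 0.0913 and 0.0884). Pairing by replicate number is not established, and NOD has only 2 pairs.

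Arrays of a strain that carry the same replicate number allow a further look. Stimulated minus unstimulated Id2 was 0.44 and 0.58 in the NOD pairs and 0.52, 0.32 and 0.65 in the NR4 pairs. The same differences for Id3 were -0.66 and -0.93 in NOD and -0.79, -0.50 and -0.83 in NR4. Id2, Id3 and Tcf12 kept 1 sign over all 5 pairs, which 16.7% of all genes also did. Tcf12 ranged from 0.05 to 0.47, while Tcf3 was negative in 4 pairs and 0.17 in NR4 pair 2. Id1 was negative in both NOD pairs, at -0.04 and -0.15, and positive in the NR4 pairs, at 0.51, 0.79 and 0.25.

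No member passed the interaction test, in which the NR4 response is subtracted from the NOD response (limma, 0 of 6 members and 0 of 18193 genes, or 0% called). At an unadjusted p under 0.05 there was also no member, and 1.40% of genes. The difference between the responses was 0.04 for Id2 (95% interval -0.36 to 0.45) and -0.13 for Id3 (95% interval -0.80 to 0.53). For Tcf4 it was 0.06 (-0.24 to 0.36), for Tcf12 -0.16 (-0.48 to 0.17) and for Tcf3 -0.33 (-1.16 to 0.49). The largest was that of Id1, -0.50 (SE 0.37, 95% interval -1.32 to 0.33, limma unadjusted p = 0.212). With the replicate block the Id1 value was -0.67 (SE 0.23, unadjusted p = 0.0176, adjusted p = 0.861). For Id1, Id3, Tcf3, Tcf4 and Tcf12 these intervals hold strain differences as large as the averaged response or larger, and for Id2 differences nearly as large.

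**Figure D3:**
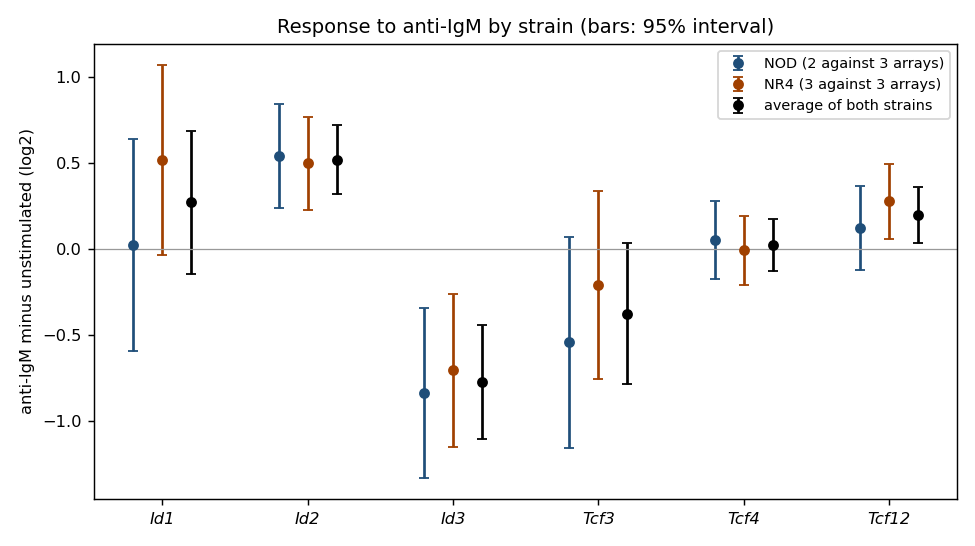
Response to anti-IgM (vertical axis, log2, anti-IgM minus unstimulated) of the 6 genes in NOD, in NR4 and averaged, with 95% intervals from limma. The NOD and NR4 points lie close for Id2 (0.54 and 0.50) and Id3 (-0.84 and -0.71) and furthest apart for Id1 (0.02 and 0.52), where the intervals overlap.

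Between the strains, 0 of 6 members passed averaged over the cultures (limma), where 0.121% of genes did. None passed in unstimulated cells (0.0605% of genes) or in stimulated cells (0.0495% of genes) either. At an unadjusted p under 0.05 there was no member in unstimulated cells (1.54% of genes) or stimulated cells (4.34% of genes), while Id2 alone differed in the averaged comparison, where 4.39% of genes did. Its NOD minus NR4 difference was 0.23 (SE 0.09, 95% interval 0.03 to 0.43, limma unadjusted p = 0.0293, adjusted p = 1). In both cultures the NOD arrays of Id2 lay above the NR4 arrays without overlap, while arrays of the strains did not overlap for 6.38% of genes in unstimulated and 14.1% in stimulated cells. The lowest NOD and highest NR4 arrays of Id2 were at -0.12 and -0.13 in unstimulated cells and at 0.44 and 0.39 in stimulated cells. Tcf4 did not overlap either in unstimulated cells, where its highest NOD array was at -0.01 and its lowest NR4 array at 0.00. Averaged over the cultures, the lowest of the Tcf4 probe sets was 1434148_at, at -0.15 (SE 0.07, limma adjusted p = 1), and the highest 1416725_at, at 0.08 (SE 0.17). For Id2, probe set 1422537_a_at carried the widest strain difference, 0.50 (SE 0.13, limma adjusted p = 0.601), against 0.21 and -0.03 for the other 2 Id2 sets. Of all probe sets, 0.106% passed between the strains, and 0 of the 19 did. NOD and NR4 arrays of both cultures together did not overlap for 0.599% of genes and for no member.

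The remaining members differed between strains by less. Tcf4 was at -0.11 (SE 0.07), Id3 at 0.14 (SE 0.15), Tcf3 at 0.09 (SE 0.18), Tcf12 at 0.02 (SE 0.07) and Id1 at -0.01 (SE 0.19). Id3 is the member on chromosome 4, the chromosome in which the strains differ by design. Id1 lies on chromosome 2, Id2 on 12, Tcf3 on 10, Tcf4 on 18 and Tcf12 on 9, per the RefSeq gene table. Whether Id3 falls inside the exchanged segment is not given in the sources used here. Of the 10 measured genes nearest to it in gene order, 5 on each side, 0 passed averaged over the cultures, with differences from -0.12 to 0.33.

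The 6 members did not vary together over the arrays. Over the 11 arrays, which share lots and cultures, the Pearson correlation of Id2 was 0.81 with Tcf12, 0.51 with Id1 and -0.61 with Id3. Id3 correlated with Tcf3 at 0.71 and with Tcf4 at -0.51. The genes whose values were most like a member were taken as the 3 with the highest Pearson correlation over the same 11 arrays. For Id2 these were Degs1 (0.96), Snhg4 (0.96) and Fosb (0.95), of which Snhg4 rose by 0.72 (SE 0.13, limma adjusted p = 0.0226) and the AP-1 gene Fosb by 1.23 (SE 0.19, adjusted p = 0.014). For Id3 they were Nrm (0.98), the DNA damage checkpoint gene Rad1 (0.98) and Ripor2 (0.97), of which Nrm fell by 0.60 (SE 0.12, adjusted p = 0.0379) and Ripor2 by 0.38 (SE 0.07, adjusted p = 0.0322).

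For Tcf12 the likest genes were the vitamin D receptor gene Vdr (0.92), which rose by 0.64 (SE 0.12, limma adjusted p = 0.0275), Slc31a1 (0.91) and Dbi (0.90). For Id1 they were Ppp1r35 (0.98), Guca1a (0.97) and Cavin3 (0.97). For Tcf3 they were Smim20 (0.94), Ankzf1 (0.93) and Ap2s1 (0.93). For Tcf4 they were the kinase gene Tbk1 (0.95), Snrnp48 (0.95) and Mef2a (0.92). None of the 9 genes most like Id1, Tcf3 or Tcf4 was called in the averaged response. The correlations are descriptions of 11 values each, picked as the highest of 18193. The same 11 arrays gave the responses of these genes. Whether a gene like a member was called thus largely follows from how it was picked, and is no separate result.

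A list of 75 further genes of the pathway was set against the members, of which 72 were analysed here and are called measured. In the averaged response 4 rose, 2 fell and 66 did not pass, with a median difference of -0.02 against 0.00 for all genes. Among 11 inducers of ID genes 2 rose, namely the zinc finger factor genes Egr2, by 1.21 (SE 0.07, limma adjusted p = 7.12e-05), and Egr1, by 0.32 (SE 0.06, adjusted p = 0.0322). EGR factors are known activators of Id3 in developing thymocytes. The other 9, most of them genes of bone morphogenetic protein and TGF-beta signalling, did not pass. Of 6 antagonists of these inducers none passed, with Nab2, an EGR corepressor gene, at 0.69 (SE 0.23, adjusted p = 0.242) and Smad7 at -0.19 (SE 0.07, adjusted p = 0.296).

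Of 29 measured B lineage genes that E proteins bind or activate, 2 rose and 2 fell, so this part did not shift 1 way. The transcriptional repressor gene Gfi1 rose by 1.16 (SE 0.09, limma adjusted p = 0.000419) and Irf4, needed for plasma cell differentiation, by 0.79 (SE 0.07, adjusted p = 0.000636). Vpreb3, of the pre-B cell receptor gene family, fell by 1.28 (SE 0.23, adjusted p = 0.0226) and the receptor subunit gene Cd79b by 0.62 (SE 0.10, adjusted p = 0.0159). The part's median was -0.04. Cd79b is also among the pan B markers and Irf4 among the plasma cell markers described below.

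In the other parts no gene passed. The fourth inhibitor, Id4, was at -0.05 (SE 0.12). The 10 other helix-loop-helix partners had a median of 0.03, with Tcf21 at 0.09 and Lyl1 at -0.30 (SE 0.24). The 9 LIM and coregulator partners had a median of -0.11, with the acetyltransferase gene Ep300 at -0.16 (SE 0.07, limma adjusted p = 0.365) and Cbfa2t2 at -0.16. Of 6 measured genes for the stability of ID and E proteins, Cops5 was at -0.22 (SE 0.08, adjusted p = 0.232) and Usp1, whose product removes ubiquitin from ID proteins, at -0.20 (SE 0.10). Between the strains 0 of the 72 passed averaged over the cultures (limma), with a median of 0.01.

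**Figure D4:**
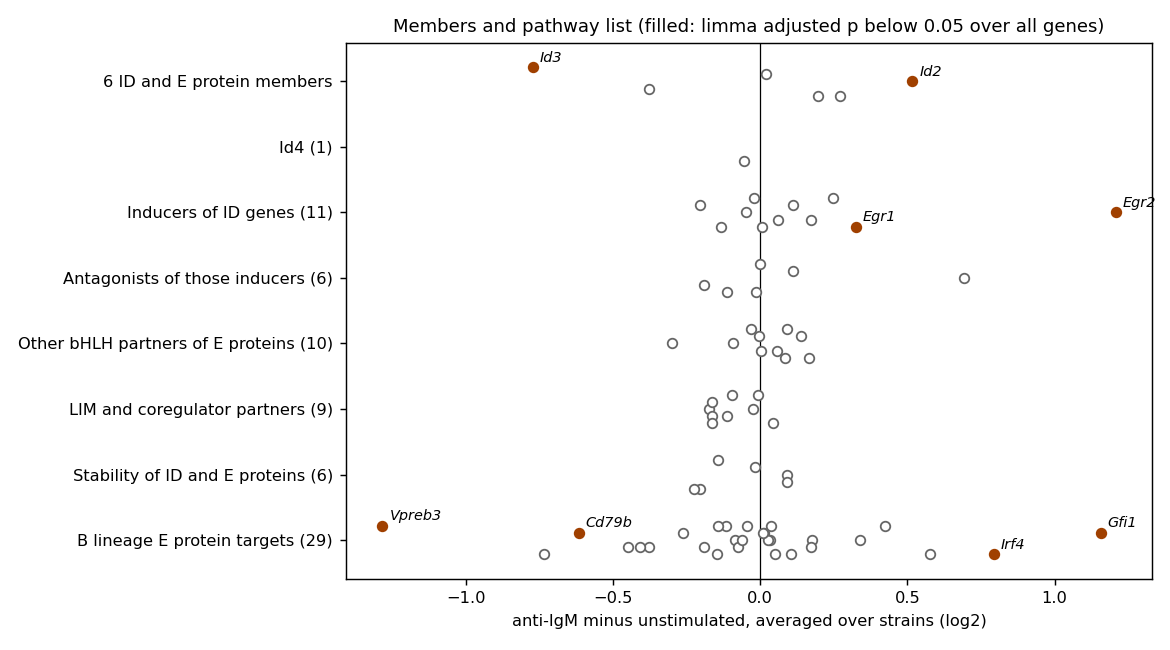
Averaged response (horizontal axis, log2) of the 6 members and of the 72 measured genes of the pathway list, by part, with the number measured in brackets; filled points passed over all genes. Id2, Egr1, Egr2, Irf4 and Gfi1 are the filled points above 0 and Id3, Cd79b and Vpreb3 those below; vertical position within a row carries no value.

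Markers of other cells were followed because Id2 is abundant in NK cells and Tcf4 in plasmacytoid dendritic cells. None of the 10 measured NK and innate lymphoid markers passed in the averaged response, and their median difference was 0.04. Of the 10, 5 had positive differences. They ranged from -0.18 for Ncr1 (SE 0.24) to 0.51 for Il2rb (SE 0.23, limma adjusted p = 0.423), with Gzma at 0.37 and Eomes at 0.35. The mean of the 10 markers was -0.04 to 0.21 in unstimulated NOD, 0.07 to 0.29 in stimulated NOD, -0.78 to 0.13 in unstimulated NR4 and -0.36 to 0.18 in stimulated NR4 arrays. Its change with stimulation was 0.08 in NOD and 0.13 in NR4, beside 0.54 and 0.50 for Id2. Within groups, however, Id2 and the markers moved together: after subtraction of group means their Pearson correlation over the 11 arrays was 0.92. Unstimulated NR4 replicate 3 was lowest in both, at -0.78 and -0.51.

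Without that array the Id2 response was 0.46 and remained called (limma adjusted p = 0.0301), and the strain difference of Id2 was 0.17 (adjusted p = 0.999). Between strains the NK markers had a median of 0.32 higher in NOD, with 8 of 10 positive and 0 called, beside the 0.23 of Id2. The part of these cells in the strain difference of Id2 was not tested. Centred values cannot show which of the markers lie at background.

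**Figure D5:**
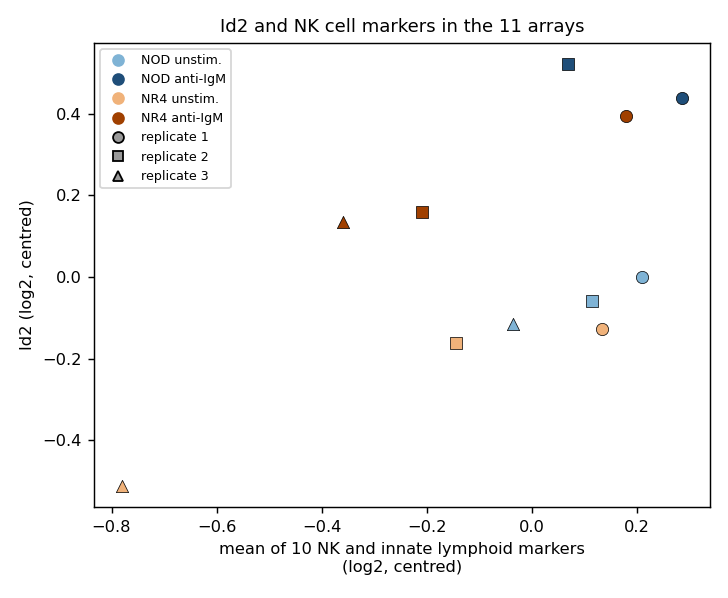
Id2 (vertical axis, centred log2) against the mean of the 10 measured NK and innate lymphoid markers (horizontal axis, centred log2) in the 11 arrays, coloured by group. Stimulated arrays lie between 0.13 and 0.52 on the Id2 axis and unstimulated ones between -0.51 and 0.00 over largely the same range of marker values, and Id2 is lowest where the markers are lowest.

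Of the 8 measured pan B markers 5 fell in the averaged response and 0 rose, and the mean of all 8 was -0.05 to 0.33 in unstimulated and -0.41 to -0.12 in stimulated arrays over both strains. Its correlation over the 11 arrays was 0.84 with Id3, -0.83 with Id2 and -0.84 with Tcf12. After subtraction of group means these were 0.36, -0.69 and -0.57. Of 4 measured follicular B cell markers 0 passed, with a median of -0.14, and of 7 marginal zone markers 1 rose and 1 fell. Of 5 B-1 cell markers 2 rose, Cd5 by 0.95 (SE 0.17, limma adjusted p = 0.0249) and Plscr1 by 0.74 (SE 0.11, adjusted p = 0.0131). Bhlhe41 of the same list was at -0.33 (SE 0.12, adjusted p = 0.258), Zbtb32 at 0.12 and Spn at 0.02. The mean of the 5 was -0.32 to 0.13 in unstimulated and 0.05 to 0.35 in stimulated arrays, and correlated with Id2 at 0.85, or 0.68 within groups, and with Id3 at -0.34, or 0.77 within groups. Of 8 T cell markers 0 passed, and within groups their mean correlated with Id2 at 0.70 and with Id1 at 0.79. The mean of 10 monocyte and macrophage markers followed Id1 and Tcf3 within groups, at 0.91 and 0.92, with 0 of 10 passing in the averaged response. Itgax rose by 0.50 (SE 0.08, limma adjusted p = 0.0173), the 1 of 6 conventional dendritic cell markers that passed. The mean of these 6 correlated with Id1 at 0.84, or 0.82 within groups, and with Tcf3 at 0.69 within groups. Of 6 plasma cell markers 1 rose, Irf4. The mean of the 6 was -0.12 to 0.04 in unstimulated and 0.00 to 0.28 in stimulated arrays. It correlated with Tcf12 at 0.69, or 0.74 within groups. Of 6 neutrophil and 4 erythroid markers 0 passed. Within groups the erythroid mean correlated with Id1 at 0.62, with Tcf3 at 0.63 and with Id3 at 0.61. Pecam1 fell by 0.97 (SE 0.17, limma adjusted p = 0.0226), the 1 of 6 stromal and endothelial markers that passed. Rgs13 rose by 1.199 (SE 0.14, adjusted p = 0.00366), the 1 of 5 germinal centre B cell markers that passed. The germinal centre mean correlated within groups with Id1 at -0.75 and with Tcf3 at -0.68. Of 5 plasmacytoid dendritic cell markers 0 passed, and their mean correlated with Tcf4 at 0.73 over the 11 arrays and at 0.59 within groups. For the follicular markers the correlations with Tcf4 were -0.77 and -0.72, and those with Id3 were 0.64 and 0.66. Id3 correlated with the marginal zone mean at -0.12, or 0.68 within groups. With the monocyte and macrophage mean Id3 correlated at 0.07, or 0.66 within groups, and with the neutrophil mean at -0.16, or -0.59 within groups. The part of these cell types in the responses of the members was not tested.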

How the data were processed

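RNA of 11 samples was hybridised to Affymetrix mouse genome arrays. The authors deposited values summarised by robust multi-array averaging (RMA), per the submitters' processing notes, and these are taken as log2. Version and genome build: not given in the sources used here. In the deposited log2 table all 45101 probe sets had a median of 0 over the arrays, so levels, background correction and a filter on dim probe sets could not be varied. No pair of arrays was identical.

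From these values, the median of the probe sets naming 1 symbol was taken for each gene. The 4 group means were fitted with limma 3.58.1 (R 4.3.3) with 7 residual degrees of freedom and empirical Bayes moderation, and p-values were adjusted by Benjamini-Hochberg over all genes. The 7 comparisons were the response (stimulated minus unstimulated) averaged and in each strain, the strain difference (NOD minus NR4) averaged and in each culture, and their interaction. The code was tested on simulated data. Replicates are lots of pooled spleens, so p-values measure the spread between lots and cultures.

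Named were the 6 members, the list genes past the threshold, the 2 of smallest p in list parts without one, and the 3 genes most like each member. Members and lists were chosen with earlier results of these data known.

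Replicate numbers are those of the labels, which do not say that a number marks a lot. Deviations from group means of same-numbered arrays correlated at 0.59, 0.21 and 0.51 between the unstimulated groups. Between the NR4 cultures they correlated at 0.33, 0.22 and 0.47. Correlations of differently numbered arrays are not given here, so pairing is not established by these values. The main fit used no pairing. Numbers were taken to pair arrays only in the block alternatives and in the differences of same-numbered arrays. With 2 pairs each, the correlations were 0.63 and 0.12 between the NOD cultures and 0.37 and -0.12 between the stimulated groups. Alternatives were a replicate block, a random block of lot (taken as strain and replicate number) and other ways to join probe sets. Quantile normalization, fits on the groups compared, and leaving out each array were further ones. Promoters come from the RefSeq table (GRCm38.p6) and gene order from the RefSeq gene table, where 6 of 6 members matched.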

Additional observations from a re-analysis of the deposited data

Results flagged for a closer look

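The sign of the strain difference changed between the cultures for Id1, Tcf3 and Tcf12. Id1 and Tcf12 stood out because every NOD array took part in the change. For both, each of the 3 unstimulated NOD arrays lay above the mean of the unstimulated NR4 arrays, and each of the 2 stimulated NOD arrays lay below the mean of the stimulated NR4 arrays. The stimulated minus the unstimulated strain difference was -0.50 for Id1 (limma interaction, unadjusted p = 0.212, adjusted p = 1). It was -0.16 for Tcf12 (limma interaction, unadjusted p = 0.311, adjusted p = 1). For Id1 the separation is thin, since unstimulated NOD replicate 3 was at -0.168 and the unstimulated NR4 mean at -0.170. With the mean of probe sets the pattern of Tcf12 turned, to -0.090 in unstimulated cells, 0.020 in stimulated cells and 0.11 for their difference. For Tcf3 the strain difference was 0.26 in unstimulated and -0.07 in stimulated cells (limma interaction -0.33, adjusted p = 1).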

How the results depend on the processing

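Id2 and Id3 kept the sign of their averaged response under all 16 alternatives, and were called in 11 and 8 of them. With each array left out in turn, Id2 ranged from 0.46 to 0.55 (adjusted p from 0.0301 to 0.114, called in 7 of 11) and Id3 from -0.90 to -0.64 (adjusted p from 0.0338 to 0.162, called in 3 of 11), so 0 to 2 members were called. With the lowest-numbered probe set Id2 was at 0.58 (adjusted p = 0.067) and 1 member was called.

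With the replicate block 558 genes were called in the averaged response in place of 283, 52 in place of 21 in NOD, 229 in place of 75 in NR4, 37 in place of 22 between strains, and 830 probe sets in place of 495. With that block 1 member, Id3, was called in each strain, and no other member's call changed for genes. With lot as a random block (correlation 0.34) the counts were 756, 91, 353 and 12, and 2 members, Id2 and Id3, were called in NR4. Quantile normalization gave 9 genes in NOD and 16 in NR4. Fits on the groups compared gave 0 in NOD, 9 in NR4 and 4 between stimulated cells. With an array left out, the counts were 76 to 273 in the averaged response, 0 to 25 in NOD, 21 to 50 in NR4, 12 to 21 between strains and 4 to 10 between stimulated cells.

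Signs turned only for differences that were not called. With the replicate block the NOD response of Id1 was -0.16 and the interaction of Id2 -0.024, and with the random block that Id1 response was -0.018. With the mean of probe sets, Tcf12 was at -0.035 between strains, -0.090 between unstimulated and 0.020 between stimulated cells, Tcf3 at 0.069 between stimulated cells, and the interactions of Id2 and Tcf12 at -0.032 and 0.11. With the lowest-numbered probe set, the NR4 response of Tcf4 was 0.037, Tcf3 was at 0.37 between stimulated cells, and the interactions of Id2, Tcf3 and Tcf4 were -0.027, 0.35 and -0.027. With quantile normalization Id1 was at 0.027 between strains and Id3 at -0.044 between stimulated cells. With an array left out, the averaged response of Tcf4 was -0.0011 to 0.050, the NOD response of Id1 -0.21 to 0.26, and the NR4 responses of Tcf3 and Tcf4 -0.39 to 0.069 and -0.053 to 0.049. Between strains Id1 was at -0.15 to 0.10, Tcf3 at -0.054 to 0.24 and Tcf12 at -4.6e-05 to 0.061. Between stimulated cells Id3 was at -0.18 to 0.33, Tcf3 at -0.37 to 0.22 and Tcf12 at -0.094 to 0.016, and the interactions of Id2 and Id3 were -0.027 to 0.16 and -0.39 to 0.13. The cause of these changes was not tested. Where an array was left out of the stimulated NOD group, the lone array was assumed to vary like the other groups. Signal over background is unknown here.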
